A study of Bos taurus with 9 samples.

Results

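Of 24616 bovine genes with an expression value, 84 lay low in every oocyte library and higher in every 2-cell embryo library, whether the embryo came from fertilisation or from cloning. They were chosen as the genes with at least 2 FPKM in all 6 embryo libraries, under 1 FPKM in all 3 oocyte libraries and a mean under 1000 FPKM over the 9 libraries. FPKM is the number of sequenced fragments that fall on a gene, divided by the length of its transcript and by the library's fragments. It is a share of the library and not an amount per oocyte or embryo, so more RNA of a gene and less RNA of other genes cannot be told apart. The rule used the oocyte and embryo levels themselves, so the step from oocyte to embryo is described here without a test.

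The study sequenced Holstein material in 3 groups of 3 libraries. MII oocytes are mature, unfertilised eggs halted at metaphase of the second meiotic division, and each of their libraries came from a pool of 3. IVF 2-cell embryos arose from eggs fertilised in culture, and SCNT 2-cell embryos from somatic cell nuclear transfer, in which the nucleus of a body cell replaces that of the egg, with pools of 6 embryos per library. No group carried a genetic change or a drug treatment according to the labels, which do not name the donor cells, the sperm or the age of the animals. The pool size changed together with the stage, so the 2 cannot be told apart in any comparison with oocytes. Whether pools within a group had different donors or cultures is not stated in the labels. A p-value therefore sets a difference against a spread between libraries that may be technical.

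The summed FPKM of a library lay between 1153912 and 1386979, the read depth is unknown, and genes at 1 FPKM or more numbered 7875 to 8300 in oocyte, 9230 to 9455 in IVF and 8705 to 9271 in SCNT libraries. The genes carry Ensembl identifiers, none of which is paired with a name in the files or matched an entry of the reference table used here. Functions, positions and sequences of the 84 genes were therefore not analysed, marker genes of oocytes, embryos, cumulus cells or donor cells could not be checked against the labels, and only 5 genes are identified, by a rule given with the methods.

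As background, a mammalian egg stores RNA made during its growth and transcribes little once it is mature. The first divisions of the embryo run mostly on this stored RNA, while the embryo's own genome is switched on in steps, with a small early wave and a larger later one, which in cattle comes after the 2-cell stage. RNAs that are low in the egg and higher in the cleaving embryo are therefore sought as traces of the early wave. In a cloned embryo the donor nucleus, which had been running the programme of a body cell, has to take up that of an embryo in the same egg cytoplasm.

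The 84 genes were a small part of what the embryos expressed. In all, 7121 genes had at least 2 FPKM in every embryo library, and the 84 were 1.18% of them. Most of the 7121, namely 6759 genes (94.9%), had 1 FPKM or more in all 3 oocyte libraries as well, and a further 278 had it in 1 or 2 of them. No gene was removed by the ceiling of 1000 FPKM. The mirrored rule, with at least 2 FPKM in all 3 oocyte libraries and under 1 FPKM in all 6 embryo libraries, found 2 genes, but it asks for high values in fewer libraries and for low values in more, so the 2 counts are not like for like.

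The name "newly detected" holds for these genes only in the sense that they crossed from under 1 to over 2 FPKM. None of the 84 was listed at 0 in all 3 oocyte libraries, and 75 of them had a value above 0 in each oocyte library. The mean over the oocyte libraries was at least 0.5 FPKM in 49 of the 84. Among all 24616 genes, 110 were above 0 in every embryo library and at 0 in every oocyte library, but the median of their embryo means was 0.21 FPKM. A single one of these had at least 1 FPKM in all 6 embryo libraries. It stood at 1.44, 5.63 and 3.25 FPKM in IVF replicates 1, 2 and 3 and at 14.4, 7.32 and 10.2 FPKM in SCNT libraries 1 to 3. It missed the rule through IVF replicate 1 alone, and its SCNT libraries all lay above its IVF libraries.

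In the oocytes the mean of a gene over the 3 libraries ran from 0.0368 to 0.848 FPKM, with a median of 0.533. Medians over the 84 genes were 0.425, 0.524 and 0.652 FPKM in MII replicates 1, 2 and 3, with highest values of 0.979, 0.956 and 0.998 FPKM. In 17 genes all 3 oocyte libraries stayed under 0.5 FPKM, and in 19 genes the highest oocyte value was 0.9 FPKM or more. A value of 0 occurred for 7 genes in MII replicate 1, 1 gene in MII replicate 2 and 4 genes in MII replicate 3. An exact 0 can be a failed estimate, so these genes are said only to be listed at 0. In the same libraries the lowest oocyte value above 0 among the 84 genes was 0.0652 FPKM.

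**Figure D1:**
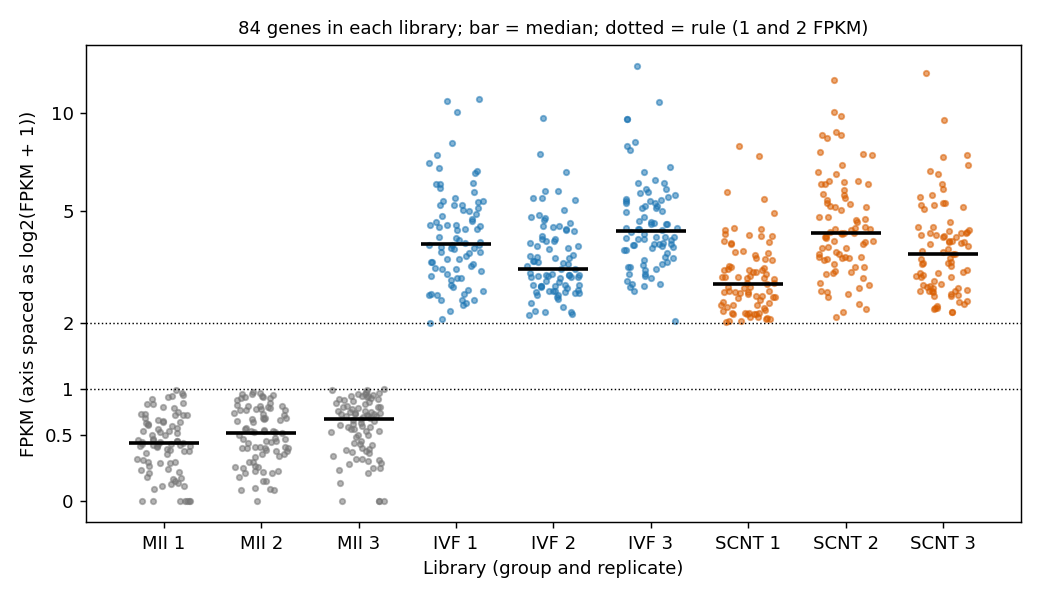
FPKM of the 84 genes (points) in each of the 9 libraries, on an axis spaced as log2(FPKM + 1), with the library's median as a bar and the limits of the rule at 1 and 2 FPKM as dotted lines. The medians were 0.425 to 0.652 FPKM in oocyte and 2.83 to 4.30 FPKM in embryo libraries, and the gap between the dotted lines is made by the rule.

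In the embryos the 84 genes were of low abundance too. The mean over the 6 embryo libraries ran from 2.38 to 10.1 FPKM with a median of 3.67, against a median of 20.3 FPKM for the other 7037 genes at the embryo minimum. It was under 3 FPKM for 11 genes, 3 to 5 FPKM for 61, 5 to 10 FPKM for 11 and above 10 FPKM for 1. At least 5 FPKM in each embryo library was reached by 4 of the 84. The sum over all 84 genes was 355 ± 49.1 FPKM (SD, n = 3) in IVF and 331 ± 70.1 FPKM (SD, n = 3) in SCNT embryos, against 43.4 ± 6.56 FPKM (SD, n = 3) in oocytes. These sums were 0.0296%, 0.0257% and 0.00345% of the FPKM total. The 10 highest genes held 21.3% of the sum in IVF embryos and 21.3% in SCNT embryos, and 8 genes were among the 10 highest in both.

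ENSBTAG00000001059 was the most abundant of the 84. It had 10.1, 9.69 and 13.7 FPKM in IVF libraries 1 to 3, 7.43, 10.1 and 9.52 FPKM in SCNT libraries 1 to 3, and 0.714, 0.355 and 0.561 FPKM in the oocytes. IVF replicate 3 was its highest and SCNT replicate 1 its lowest embryo library, and the 2 kinds of embryo overlapped. The log2 change from IVF to SCNT was -0.27 (SE 0.174, 95% interval -0.67 to 0.13, adjusted p = 0.283, limma).

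ENSBTAG00000015479 was the next most abundant, at 10.9, 7.53 and 10.8 FPKM in IVF libraries 1 to 3 and 5.46, 12.5 and 7.50 FPKM in SCNT libraries 1 to 3. Its oocyte values were 0.188, 0.919 and 0.872 FPKM, so MII replicate 1 lay well below the other oocyte libraries. The SCNT libraries held both the highest and the lowest embryo value, and the log2 change from IVF to SCNT was -0.23 (SE 0.27, 95% interval -0.85 to 0.39, adjusted p = 0.553, limma).

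The size of the step from oocyte to embryo ranged more widely between genes than the embryo level did. The rule favours this, as it sets a lower limit in the embryos but none in the oocytes. Over the 75 genes above 0 in every oocyte library, the ratio of the mean FPKM in IVF embryos to that in oocytes had a median of 7.58 and ran from 3.18 to 39.9. The ratio of SCNT embryos to oocytes had a median of 6.36 and ran from 2.91 to 41.8. Both ratios have the same oocyte libraries below the line, and the rule alone forces them above 2. A ratio of at least 10 was reached by 20 of these genes in IVF and by 17 in SCNT embryos. The gene at the upper end of both ranges had 0.0768, 0.0652 and 0.185 FPKM in MII libraries 1 to 3, 4.02, 3.91 and 5.12 FPKM in IVF libraries 1 to 3 and 2.03, 6.08 and 5.56 FPKM in SCNT libraries 1 to 3. Across the 84 genes the oocyte mean and the embryo mean were almost unrelated within the limits of the rule (Spearman's rho 0.064 across genes, which share their libraries).

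The 17 genes under 0.5 FPKM in all oocyte libraries had embryo means of 2.67 to 4.49 FPKM with a median of 3.48. The other 67 ran from 2.38 to 10.1 FPKM with a median of 3.73. The genes lowest in the oocyte were thus not those highest in the embryo, and the 4 genes at 5 FPKM or more in each embryo library all had an oocyte library above 0.5 FPKM.

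Among the 84, 3 genes were listed at 0 in 2 oocyte libraries. The first had 0.11, 0 and 0 FPKM in MII libraries 1 to 3, 2.76, 3.40 and 4.41 FPKM in IVF libraries 1 to 3 and 2.18, 3.82 and 2.33 FPKM in SCNT libraries 1 to 3. The next had 0, 0.39 and 0 FPKM in MII libraries 1 to 3, 4.11, 2.61 and 6.26 FPKM in IVF libraries 1 to 3 and 3.94, 4.25 and 4.18 FPKM in SCNT libraries 1 to 3. The last had 0, 0.382 and 0 FPKM in MII libraries 1 to 3, 2.57, 4.75 and 3.06 FPKM in IVF libraries 1 to 3 and 2.11, 2.65 and 2.73 FPKM in SCNT libraries 1 to 3. In each of the 3 the IVF and SCNT libraries overlapped. Counting 6 more genes listed at 0 in 1 oocyte library, these 9 genes had embryo means between 2.62 and 4.46 FPKM.

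Choosing the genes without 1 library and then reading that library gave values that the choice had not used. The genes that also met the limit there were always the same 84, so only the number that failed could differ. With MII replicate 3 left out, 134 genes met the rule, and 84 of them (62.7%) were also under 1 FPKM in that library, with a median of 0.845 FPKM. Of the others, 10 reached 2 FPKM or more there. The most extreme of them, listed at 0 in MII replicates 1 and 2, had 156 FPKM in MII replicate 3 and 67.5 to 212 FPKM in the embryos. With MII replicate 1 left out, 84 of 98 genes (85.7%) were under 1 FPKM in it, and with MII replicate 2 left out, 84 of 105 (80%). A gene chosen on 2 oocyte libraries was thus low in the third less often for MII replicate 3 than for the other two, a difference given without a test.

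On the embryo side the left-out library met the limit of 2 FPKM in most genes, with 1 library set apart. The share was 100% for SCNT replicate 2 (84 of 84 genes), 98.8% for IVF replicate 3 (84 of 85), 96.6% for IVF replicate 1 (84 of 87), 94.4% for IVF replicate 2 (84 of 89) and 93.3% for SCNT replicate 3 (84 of 90). For SCNT replicate 1 it was 70.6% (84 of 119), with a median of 2.41 FPKM in that library. The same counts can be put the other way. In all, 50 genes under 1 FPKM in all oocytes failed the rule through exactly 1 embryo library, and that library was SCNT replicate 1 for 35 of them. Of the 9 libraries, MII replicate 3 and SCNT replicate 1 thus changed the length of the list most when left out.

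The limits also passed through a dense region of values. Just inside them, the lowest embryo value of any of the 84 genes was 2.00 FPKM and the highest oocyte value 0.998 FPKM. Just outside, the nearest gene in the embryos reached 1.9997 FPKM in its lowest library, and the nearest in the oocytes 1.002 FPKM in its highest. A lowest embryo value under 2.2 FPKM was held by 16 of the 84 genes, and 22 excluded genes with low oocytes had theirs at 1.8 FPKM or more. With a minimum of 1 FPKM in the embryos 335 genes would have been listed, and with a minimum of 5 FPKM, 4 genes.

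SCNT and IVF embryos were then compared at these genes. The rule set the same minimum of 2 FPKM for both kinds of embryo, but it used the values compared here. It leaves out any gene that was missing from 1 kind, and it did not cut both kinds equally. Genes that failed through exactly 1 embryo library did so through SCNT replicates 1, 2 and 3 in 35, 0 and 6 cases. Through IVF replicates 1, 2 and 3 they did so in 3, 5 and 1 cases. The comparison is thus limited by the choice of genes, and how far this shaped the counts below was not tested. Values were taken as log2(FPKM + 1), which understates the change of low genes, and fitted with limma for the 6 embryo libraries. This fit covered the 9458 genes that reached 1 FPKM in 3 or more of the 9 libraries. The p-values were adjusted over all of them by the Benjamini-Hochberg method.

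None of the 84 genes passed an adjusted p of 0.05 between SCNT and IVF embryos (limma, 0 of 84), where 13.4% of all tested genes did (1.49% with SCNT above IVF and 11.9% with SCNT below). At an unadjusted p under 0.05 limma gave 5 of the 84 genes (5.95%), with SCNT above IVF in 1 and below it in 4, against 36.4% of all tested genes. With all 9 libraries in the limma fit 0 of 84 passed again, but there only 0.18% of all tested genes did. Non-overlapping libraries were found in 10 of the 84 genes, 1 with SCNT above IVF and 9 with SCNT below, against 41.4% of all tested genes (4.63% above and 36.7% below). Of the other 7037 genes at the embryo minimum, 16.7% passed the adjusted threshold in the fit of 6 libraries and 42.4% the unadjusted one (limma). Their libraries did not overlap in 5.39% with SCNT above IVF and in 41.2% with SCNT below.

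Replicates also lay further apart at the 84 genes than at the other genes at the embryo minimum. The SD of log2(FPKM + 1) within a group had a median of 0.26 over the 84 genes and 0.175 over the other 7037 genes at the embryo minimum, and the SE of the change from IVF to SCNT had medians of 0.20 and 0.147. The coefficient of variation within a group had a median of 18.9% in IVF and 23.5% in SCNT embryos for the 84 genes, and 10.7% and 12.7% for the others. The part of this wider spread, and of the lower level it came with, in the missing calls was not tested.

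The lack of calls does not show that the 2 kinds of embryo were alike at these genes. The 95% interval of the change took in 0 for 79 of the 84 genes, against 6014 of all 9458 tested genes. For 79 of the 84 it lay wholly within a change of 1 on the log2 scale in either direction, against 8288 of all tested genes. With 0.1 in place of 1 added to FPKM before the log, the interval lay within that limit for 65 of the 84. It did so for 6611 of all 9458 tested genes. The changes themselves ran from -0.60 to 0.52 with a median of -0.10, and 58 of the 84 were smaller than 0.25 in either direction. In mean FPKM, 57 genes were lower and 27 higher in SCNT than in IVF embryos. By the sign of the log2 change, 69% of the 84 genes were lower in SCNT embryos, against 77.8% of all tested genes. Spearman's rho between the IVF and SCNT means was 0.652 over the 84 genes, with both means held at 2 FPKM or more by the rule. The same value over all tested genes is not given here.

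**Figure D2:**
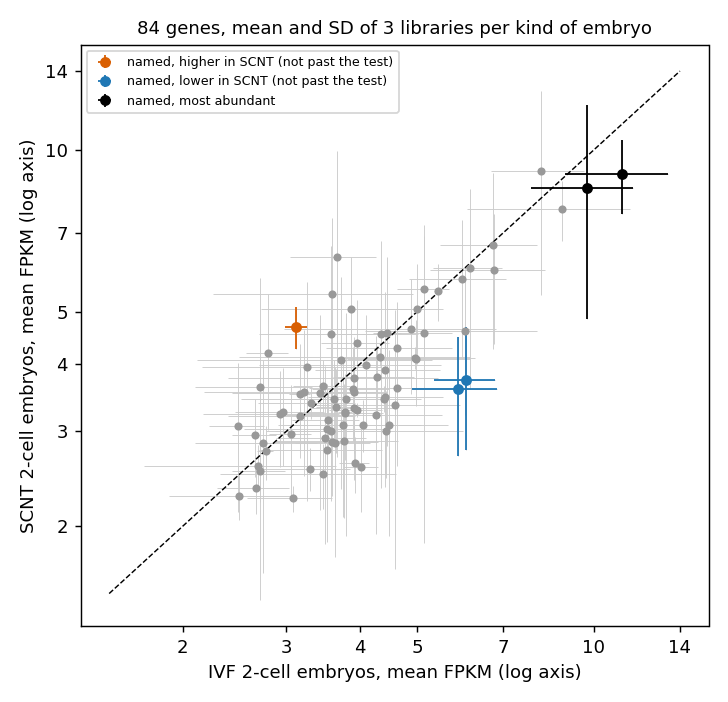
Mean FPKM of each of the 84 genes in IVF (horizontal) and SCNT (vertical) embryos on log axes, with bars for the SD of 3 libraries and a dashed line of equal level. The 5 identified genes are coloured, 57 genes lie below the line and 27 above it, and none passed the test.

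ENSBTAG00000013084 was the only one of the 84 whose SCNT libraries all lay above its IVF libraries. It had 3.13, 2.98 and 3.24 FPKM in IVF libraries 1 to 3 and 4.33, 5.16 and 4.59 FPKM in SCNT libraries 1 to 3, after 0.594, 0.667 and 0.316 FPKM in the oocytes. Its IVF libraries were very close together, and its log2 change of 0.47 (SE 0.138, 95% interval 0.15 to 0.78) did not pass the test (adjusted p = 0.0579, limma). With median-ratio scaling, quantile normalization or no mean-variance trend it did, at adjusted p-values of 0.0369, 0.0432 and 0.0476 in limma. It was then the only one of the 84 to pass, where 3.62%, 1.08% and 10.1% of all tested genes did. Over all 15 alternatives that tested it, the adjusted p in limma reached 0.142.

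In the other direction, ENSBTAG00000003434 had 5.52, 5.80 and 6.88 FPKM in IVF libraries 1 to 3 and 2.62, 4.23 and 4.35 FPKM in SCNT libraries 1 to 3. Its oocyte libraries had 0.534, 0.896 and 0.594 FPKM. SCNT replicate 1 was its lowest embryo library, and the log2 change of -0.60 (SE 0.189, 95% interval -1.03 to -0.16) did not pass the test (adjusted p = 0.0666, limma).

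ENSBTAG00000016593 had 6.70, 4.80 and 6.14 FPKM in IVF libraries 1 to 3 against 2.65, 4.43 and 3.69 FPKM in SCNT libraries 1 to 3, and 0.502, 0.798 and 0.911 FPKM in the oocytes. IVF replicate 2 and SCNT replicate 2 nearly met. The log2 change was -0.59 (SE 0.193, 95% interval -1.04 to -0.15, adjusted p = 0.0714, limma) and did not pass the test either. When FPKM was rescaled to a common total per library, this gene and ENSBTAG00000003434 were among 4 of the 84 genes that passed, all 4 lower in SCNT embryos, where 29% of all tested genes passed.

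**Figure D3:**
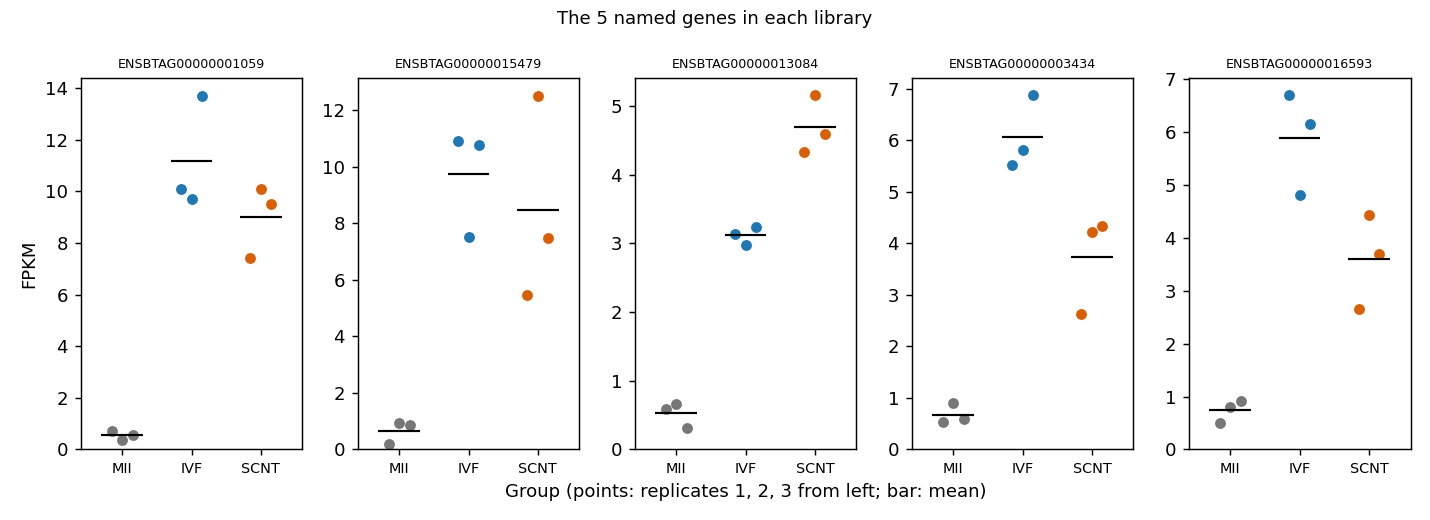
FPKM of the 5 identified genes in MII oocytes, IVF embryos and SCNT embryos, with replicates 1, 2 and 3 from left to right as points and the mean as a bar, on axes that start at 0 and differ between panels. The SCNT points of ENSBTAG00000013084 lie above its IVF points, those of ENSBTAG00000003434 and ENSBTAG00000016593 below, and those of the 2 most abundant genes overlap.

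In their sum over the 84 genes, libraries of 1 kind of embryo differed by more than the means of the 2 kinds did. The sum over the 84 genes was 366, 302 and 398 FPKM in IVF replicates 1, 2 and 3 and 260, 400.2 and 333 FPKM in SCNT replicates 1, 2 and 3. The SCNT libraries thus held both the lowest and the highest sum, and the IVF sums lay between them. SCNT replicate 1 was the lowest of the 3 SCNT libraries in 67 of the 84 genes (79.8%, against 51.8% of the other 7037 genes at the embryo minimum), and SCNT replicate 2 the highest in 61 (72.6% against 49.3%). Among IVF libraries, replicate 2 was the lowest in 55 genes (65.5% against 44.3%) and replicate 3 the highest in 53 (63.1% against 48.4%). The same libraries thus came lowest and highest most often in both sets of genes. In 16 genes (19% against 6.85%) SCNT replicate 1 lay below all IVF libraries while SCNT replicate 2 lay above all of them. These shares are given without a test.

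Part of this order was shared by other genes and part was not. Each library's median deviation from a gene's mean over the 6 embryo libraries, on the log2(FPKM + 1) scale, was set beside that of the other 7037 genes at the embryo minimum. SCNT replicate 1 was low in both, at -0.27 for the 84 genes and -0.20 for the others. IVF replicate 3 was high in both, at 0.22 and 0.19. IVF replicate 2 was at -0.12 for the 84 genes but at 0.08 for the others, and SCNT replicate 2 at 0.18 but at -0.06. These 2 libraries moved the 84 genes of the 2 kinds of embryo towards each other.

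**Figure D4:**
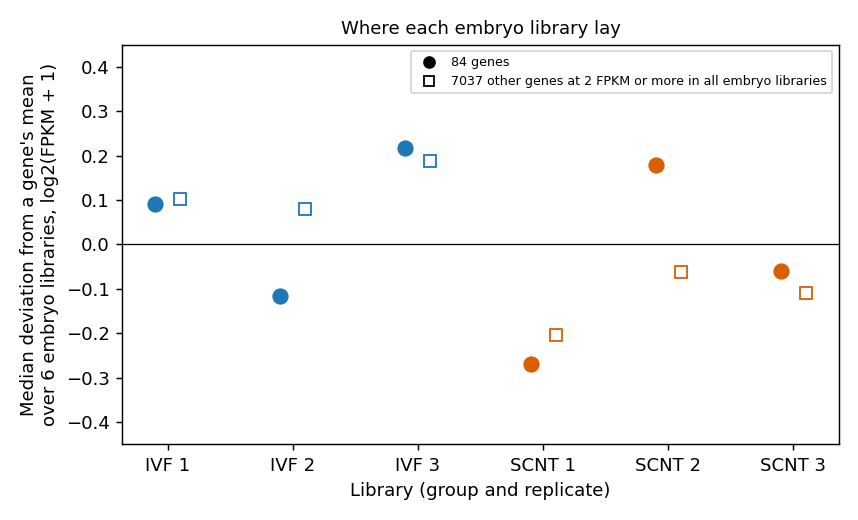
Median deviation of each embryo library (horizontal) from a gene's mean over the 6 embryo libraries, in log2(FPKM + 1) (vertical), for the 84 genes (filled circles) and the other 7037 genes at the embryo minimum (open squares). The circle and the square lie on opposite sides of 0 for IVF replicate 2 (-0.12 and 0.08) and SCNT replicate 2 (0.18 and -0.06).

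The direction of the change between SCNT and IVF embryos depended on the scaling. The median log2 change of the 84 genes was -0.10 in the deposited FPKM and -0.17 once each library had been rescaled to the same total, but 0.09 with median-ratio scaling, which levels the libraries on genes averaging 10 FPKM or more, and 0.15 with quantile normalization, which makes their distributions equal. The medians of all tested genes in the same order were -0.25, -0.31, -0.04 and -0.03. Relative to all tested genes, the 84 therefore lay 0.14, 0.14, 0.13 and 0.18 higher in SCNT embryos. Unlike all tested genes, the 84 had to reach 2 FPKM in every SCNT library, which removes genes low there. The other 7037 genes at the embryo minimum had to as well. In the same order of scalings, their medians lay -0.0099, -0.027, 0.013 and -0.0012 from those of all tested genes. Their embryo level was higher, with a median of 20.3 FPKM against 3.67 for the 84. The part of the minimum or of the level in the offset of the 84 was not tested. For FPKM as deposited the offset of the 84 genes was 0.07 without IVF replicate 2, 0.08 when SCNT replicate 2 was left out and 0.21 when SCNT replicate 1 was. It was 0.02 when the background was widened to the 15385 genes above 0 in at least 1 embryo library. The median of the background was then -0.12 instead of -0.25, while that of the 84 stayed at -0.10. The counts of genes with non-overlapping libraries moved as well, from 1 above and 9 below to 8 above and 3 below with median-ratio scaling, where 13.4% and 15.7% of all tested genes did so, and to 16 above and 4 below with quantile normalization, where 10.8% and 14.4% did.

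**Figure D5:**
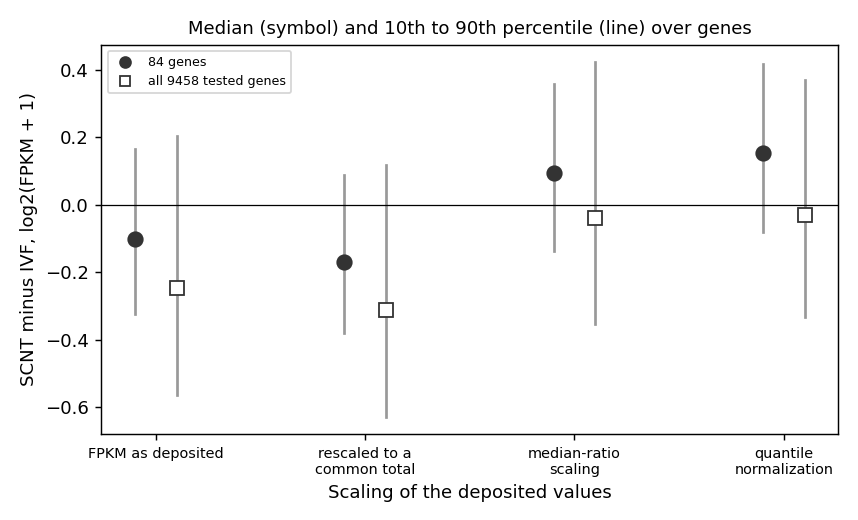
Log2 change from IVF to SCNT embryos (vertical) under 4 scalings of the deposited FPKM, as the median (symbol) and the 10th to 90th percentile (line) over the 84 genes (filled circles) and over all 9458 tested genes (open squares). The median of the 84 genes lay above that of all tested genes under each of the 4 scalings and above 0 only with median-ratio scaling and quantile normalization.

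The 17 genes under 0.5 FPKM in all oocyte libraries had a median log2 change from IVF to SCNT of 0.0017, and the 67 with a higher oocyte value one of -0.12. The single most positive change among the 84, 0.52, belonged to a gene whose libraries overlapped. It had 2.96, 4.14 and 3.86 FPKM in IVF libraries 1 to 3 and 2.59, 9.83 and 6.54 FPKM in SCNT libraries 1 to 3, so the change rested on SCNT replicates 2 and 3, with SCNT replicate 1 below every IVF library (adjusted p = 0.319, limma).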

How the data were processed

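Total RNA was turned into cDNA, tailed with poly(A), amplified, sheared and sequenced, per the labels' protocols. No strand-marking step is described, so genes with an antisense partner or a close copy are uncertain. The values are FPKM as the authors deposited them, in 1 table of 24616 Ensembl identifiers by 9 libraries. The submitters' processing notes name RSEM 1.2.12, Bowtie2 2.2.5, HISAT 0.1.6, StringTie 1.0.4, bcl2fastq 2.16 and the build UMD3.1, with no roles given. Read counts were not used here and depth is unknown.

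From the deposited FPKM, genes that reached 1 FPKM in 3 or more libraries were tested on log2(FPKM + 1) with limma 3.58.1 (R 4.3.3, mean-variance trend, threshold 0.05). The main fit held the 6 embryo libraries, because the rule bounds the oocyte values. The fit was tested on simulated data. Python 3.11.15, numpy 2.4.6, pandas 2.3.3, scipy 1.17.1 and matplotlib 3.10.9 were used for the rest. Alternatives changed the libraries fitted, replicate block, pseudocount (0.1 and 5), filter (none and 5 FPKM), scaling, trend and the limits of the rule, and left out each library.

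Identified genes were the 2 with the highest embryo mean and up to 2 per direction with the most different, non-overlapping IVF and SCNT libraries. Of 24616 identifiers, 0 matched the reference table, so the planned gene lists and marker lists were not analysed here. The 84 genes, the lists and the tests were chosen with earlier results of these data known. Other genes described by values alone were picked after their values were seen.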

Additional observations from a re-analysis of the deposited data

How the results depend on the processing

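The number of genes meeting the rule was 84 and became 335 with an embryo minimum of 1 FPKM, 4 with 5 FPKM, 17 with oocytes under 0.5 FPKM, 363 with oocytes under 2 FPKM and 0 with oocytes listed at 0. It was 82 after rescaling to 1 total and 77 under median-ratio scaling, of which 48 and 67 were among the 84. With 1 library left out it ran from 84 to 134. None of the 84 genes passed between SCNT and IVF embryos in limma (5 at an unadjusted p under 0.05), and 4 did when libraries were rescaled to 1 total, 1 under median-ratio scaling, 1 under quantile normalization and 1 without the trend. Their median log2 change of -0.10 was 0.15 with quantile normalization, and ran from -0.20 (without SCNT replicate 2) to 0.01 (without SCNT replicate 1) with 1 library left out. All tested genes gave 1265 calls, but 17 with all 9 libraries in the fit, 314 without a filter, 2744 after rescaling, 342 under median-ratio scaling, 102 under quantile normalization and 4 to 769 with 1 library left out, so the background share is unstable. With the replicate number as a block, 4 of all tested genes and 0 of the 84 were called. Deviations of same-numbered IVF and SCNT libraries correlated at -0.0315, -0.0928 and -0.0606 across genes, and those of differently numbered ones at -0.0689 to 0.111. With 3 libraries per group these values cannot decide whether the numbers pair the libraries. The causes were not tested. Unknown depth gives no counting interval for values near 1 or 2 FPKM.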
